A study of Mus musculus with 36 samples.

Results

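The genes described here are 39 genes of the G2 phase and of mitosis, found in the deposited count table by matching Ensembl identifiers to mouse symbols. All 39 were among the 48795 genes of the table, and all 39 passed the filter on low counts that left 15901 genes for testing. They comprise the cyclins and CDK1 with their activators, the mitotic and checkpoint kinases, partners and targets of the anaphase promoting complex, centromere and kinetochore proteins, the chromosomal passenger complex, spindle motors and microtubule proteins, the cytokinesis machinery, and proteins of chromosome structure. The cells were mouse lung pericyte-like cells, stromal cells expanded in flasks from lung digests, from which cells carrying CD31, CD45 or CD326 had been removed and those carrying PDGFRβ kept. They were exposed for 6 or 24 h to reduced-serum medium mixed with an equal volume of buffered saline (media only), of lavage fluid washed from uninjured airspaces (uninjured BALF), or of such fluid from injured lungs (injured BALF). Each of these 6 conditions had 3 libraries labelled female and 3 labelled male, 36 libraries in all, so every condition below has n = 6. The labels used here give neither the strain, the age nor the kind of injury, and leave unsaid if the 3 libraries of each group are separate cultures. The p-values therefore measure the spread between these libraries only.

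As background, a cell that enters G2 accumulates cyclins A and B, which bind and activate CDK1, and this kinase drives entry into mitosis. Kinetochores then attach chromosomes to the spindle, the checkpoint holds the cell until they are attached, and the anaphase promoting complex degrades securin and the cyclins so that sisters separate and the cell divides. Most of these genes are transcribed late in the cycle under the DREAM, B-MYB and FOXM1 regulators, which act at a promoter element called the CHR, with NF-Y bound at CCAAT boxes beside it, so their transcripts in a culture are commonly read as a measure of how many cells are dividing. In RNA from a whole culture, fewer dividing cells and less of these transcripts per cell cannot be told apart.

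Promoter sequences show what the members share beyond their function. RefSeq promoters of GRCm38.p6, from 250 bases before to 50 bases after the start of the gene, were matched for 34 of the 39 members. The usual letters of the CHR, TTTGAA, stood on either strand of 26 of the 34 (76.5%), against 18.1% of all 27025 promoters of this length. Its rarer form TTTAAA, which reads the same on both strands, stood in 9 of them (26.5%, against 13.2%). CCAAT, the letters of the NF-Y box, stood on either strand of 27 (79.4%, against 37.9%), and 25 (73.5%) held CCAAT together with one of the 2 CHR forms, against 10.9% of all promoters. Each promoter counted once per motif, whatever other motif overlapped it. 5 promoters are printed 5′ to 3′ on the strand of the gene, in lower case with the CHR forms and CCAAT boxes of either strand in capitals. Ccnb2, Ncapd2 and Nusap1 are shown because they are among those that rose most between 6 and 24 h, and Cdk1 and Cks2 because their estimates are among the smallest.
Ccnb2 promoter: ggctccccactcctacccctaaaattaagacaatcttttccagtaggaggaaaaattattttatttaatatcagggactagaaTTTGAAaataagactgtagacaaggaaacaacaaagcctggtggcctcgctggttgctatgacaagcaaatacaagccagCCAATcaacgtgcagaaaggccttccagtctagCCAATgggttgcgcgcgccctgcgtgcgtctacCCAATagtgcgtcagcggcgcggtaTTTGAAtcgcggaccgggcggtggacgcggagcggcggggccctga
Ncapd2 promoter: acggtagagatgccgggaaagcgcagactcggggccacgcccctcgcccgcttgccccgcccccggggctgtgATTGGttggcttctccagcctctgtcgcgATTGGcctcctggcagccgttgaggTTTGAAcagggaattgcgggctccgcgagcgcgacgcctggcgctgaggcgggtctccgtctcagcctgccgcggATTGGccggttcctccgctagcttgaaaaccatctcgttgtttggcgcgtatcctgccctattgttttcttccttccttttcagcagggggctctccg
Nusap1 promoter: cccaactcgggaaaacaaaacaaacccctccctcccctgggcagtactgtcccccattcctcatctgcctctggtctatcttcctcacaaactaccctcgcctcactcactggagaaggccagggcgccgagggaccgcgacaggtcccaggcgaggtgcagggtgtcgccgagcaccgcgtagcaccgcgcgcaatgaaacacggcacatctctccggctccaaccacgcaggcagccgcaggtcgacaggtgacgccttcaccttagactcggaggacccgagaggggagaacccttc
Cdk1 promoter: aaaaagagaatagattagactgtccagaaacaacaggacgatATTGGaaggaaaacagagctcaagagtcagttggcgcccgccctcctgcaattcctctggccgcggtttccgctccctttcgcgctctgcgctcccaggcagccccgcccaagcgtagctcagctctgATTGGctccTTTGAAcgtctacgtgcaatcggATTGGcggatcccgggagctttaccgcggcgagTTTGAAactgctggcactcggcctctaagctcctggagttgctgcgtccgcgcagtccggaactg
Cks2 promoter: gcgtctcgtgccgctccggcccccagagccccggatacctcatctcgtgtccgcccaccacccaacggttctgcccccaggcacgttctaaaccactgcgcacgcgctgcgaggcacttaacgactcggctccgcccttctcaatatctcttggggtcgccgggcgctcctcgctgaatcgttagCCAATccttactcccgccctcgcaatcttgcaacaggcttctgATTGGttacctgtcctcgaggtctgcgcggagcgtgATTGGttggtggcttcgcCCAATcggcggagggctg
The Ccnb2 promoter (chr9:70421505-70421804, minus strand) held TTTGAA with first bases at -167 and 5 relative to the start, and 3 CCAAT boxes at -87, -54 and -21. The Cdk1 promoter (chr10:69352863-69353162, minus strand) held TTTGAA at -71 and at -15 and 3 CCAAT boxes on the opposite strand. The Ncapd2 promoter (chr6:125191537-125191836, minus strand) held 1 TTTGAA at -123 and 3 CCAAT boxes on the opposite strand. None of these letters stood in the Nusap1 promoter (chr2:119618048-119618347, plus strand), and the Cks2 promoter (chr13:51644982-51645281, plus strand) held 4 CCAAT boxes on either strand and no CHR form. A match is a description of the letters in this window only.

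Total counts ran from 17134840 to 35991683 per library, and levels are given as CPM, counts relative to a library size scaled by the TMM method. Pdgfrb, which encodes the protein used for selection, lay between 256 and 862 CPM. Of the other pericyte markers, Cd248 lay at 145 to 1280, Mcam at 30.9 to 293 and Cspg4 at 14.2 to 270 CPM. Des lay at 7.97 to 165 and Notch3 at 8.91 to 86.2 CPM. Rgs5 (2.29 to 24.4 CPM) and Anpep (1.12 to 12.8 CPM) were lower, and Kcnj8 and Abcc9 reached at most 0.48 and 0.642 CPM. Of the fibroblast markers, Col1a1 lay at 5300 to 12700 and Col1a2 at 4170 to 10600 CPM. Pdgfra, Dcn and Col14a1 lay between 26.4 and 319 CPM, Lum and Tcf21 between 0.674 and 19.4 CPM, and Col13a1 reached at most 0.221 CPM. Epcam, the gene of CD326, was at 0 in 25 of the 36 libraries, and Ptprc, the gene of CD45, reached at most 1.62 CPM. Pecam1, the gene of CD31, ranged from 0.709 to 35.3 CPM. In 10 of the 12 groups libraries numbered 1 and 2 were closer to each other (chi-square per degree of freedom over genes 7.14 to 29.2) than either was to number 3 (37.3 to 129). The exceptions were female uninjured BALF and female media at 24 h, where numbers 2 and 3 were closest (35 and 84.1). Female number 1 of uninjured BALF at 24 h also carried 55.3 CPM of mesothelial markers and number 3 there 24.9 CPM, whereas in the 5 other female groups number 3 held more (47.0 to 67.4 CPM) than number 1 (16.96 to 27.5 CPM). Whether these 2 libraries were exchanged was not tested, and the labels were kept. 4 libraries, male number 3 of media at both times and of uninjured BALF at 24 h and female number 2 of media at 24 h, carry description numbers of another series than the rest. They also held fewer endothelial (8.60 to 15.03 CPM) and macrophage marker transcripts (17.2 to 20.8 CPM) than every other library (at least 25.7 and 37.3 CPM).

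2 libraries stood apart in the members themselves: male number 3 of uninjured BALF at 6 h and male number 3 of injured BALF at 6 h. In each, 38 of the 39 members lay below all 5 other libraries of the condition, and the median member stood at 0.368 and 0.369 of the median of those 5. Of all genes tested, 19.4% and 18.8% were lowest in the same libraries, and the median gene stood at 0.989 and 0.992. The members took 0.0705% and 0.0784% of the counts there, against 0.151% or more in every other library of the same conditions. The one exception was Pttg1, securin, at 12.8 CPM in the first library, above the 8.20 to 12.2 CPM of the 5 others, and at 11.1 CPM in the second, inside the range of the others. The same 2 libraries also held more mesothelial and endothelial transcripts: the 7 mesothelial markers summed to 173 and 158 CPM, against 23.7 to 55.1 and 19.1 to 47.0 CPM in the other libraries of each condition, and the 8 endothelial markers to 175 and 179 CPM, against at most 139 and 118 CPM. Msln and Upk3b, which define mesothelium, were read in all 36 libraries. Male number 3 of injured BALF at 24 h also held 121 CPM of mesothelial markers, and its members stood at a median of 0.806 of the 5 others. Female number 2 of that condition held the fewest mesothelial markers there (12.57 CPM). Its members stood lower still, at a median of 0.788. The part of these other cells in the levels of the members was not tested, and counts of called members are given with and without the 2 libraries. Male number 3 of media at 6 h, to which they are compared, belongs to the 4 libraries of other description numbers (9.08 CPM of endothelial and 13.8 CPM of mesothelial markers), as does male number 3 of uninjured BALF at 24 h, so neither is like them in these markers.

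Over the 6 conditions, the average level of the members had its lowest medians in the fluids at 6 h. The mean of log2(CPM + 0.5) over the 39 genes had a median of 5.56 in media at 6 h (5.44 to 5.69), 5.17 in uninjured BALF at 6 h (3.82 to 5.47) and 5.34 in injured BALF at 6 h (4.001 to 5.56). At 24 h it was 5.69 in media (5.49 to 5.85), 5.72 in uninjured BALF (5.48 to 5.92) and 5.91 in injured BALF (5.59 to 6.04). The uninjured BALF libraries of the 2 times did not overlap, nor did those of injured BALF, while the media libraries of the 2 times did.

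**Figure D1:**
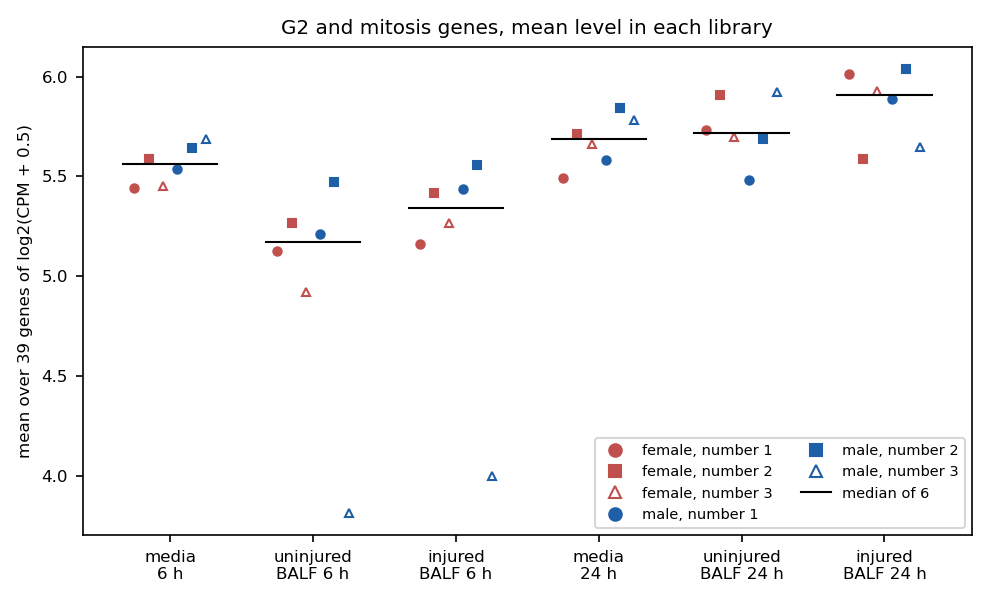
Mean over the 39 members of log2(CPM + 0.5) in each of the 36 libraries, by condition; colour marks sex, shape the library number, and the line the median of 6. Male number 3 of both fluids at 6 h lies at 3.82 and 4.001, below every other library.

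The rise between 6 and 24 h within each fluid was the most frequent change. In uninjured BALF, 28 of the 39 members rose and 0 fell at an edgeR adjusted p under 0.05, against 15.2% of all genes called higher and 15.5% called lower. The median member log2 fold change was 0.709, against 0.0226 over all genes tested, and all 39 estimates were above 0. For 17 members every 24 h library lay above every 6 h library, against 6.12% of all genes, and for 0 the reverse held, against 8.72%. In injured BALF, 24 members rose and 0 fell, against 12.8% and 14.2% of all genes, with a median log2 fold change of 0.593 against 0.00981, and 16 members lay higher at 24 h with no overlap, against 6.77%, and 0 lower, against 8.87%. In media 0 members were called in either direction by edgeR and 0 by DESeq2, against 3.51% of all genes called higher and 3.33% lower; 0 members had an unadjusted p under 0.05, and the median log2 fold change was 0.105. No member was without overlap between the times in media, against 1.31% of all genes higher and 1.43% lower. The median standard error in media was 0.213, the same as in both fluids, because the fit shares its estimate of the spread between all groups. It therefore does not measure the spread in media alone. At 6 h the median coefficient of variation of the members was 9.26% in media, 32.7% in uninjured BALF and 30.9% in injured BALF. A fit of the media groups only called Ccnb2 and Cdca3 between the times.

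The calls of this rise depended on how the libraries were counted. Without the 2 low libraries, 32 members rose in uninjured BALF (28 of them shared with all libraries) and 29 in injured BALF (24 shared), with smaller medians of 0.525 and 0.415, and 13.5% and 10.8% of all genes called higher. When libraries numbered 1 and 2 of each group were summed to 1 library, 16 and 7 members were called, and without all libraries numbered 1 the counts were 5 and 3, and without all numbered 2 they were 17 and 11. These last fits hold fewer libraries for every gene, and the share of all genes called in them is not given here. The counts therefore do not show whether the members lost more calls than other genes.

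**Figure D2:**
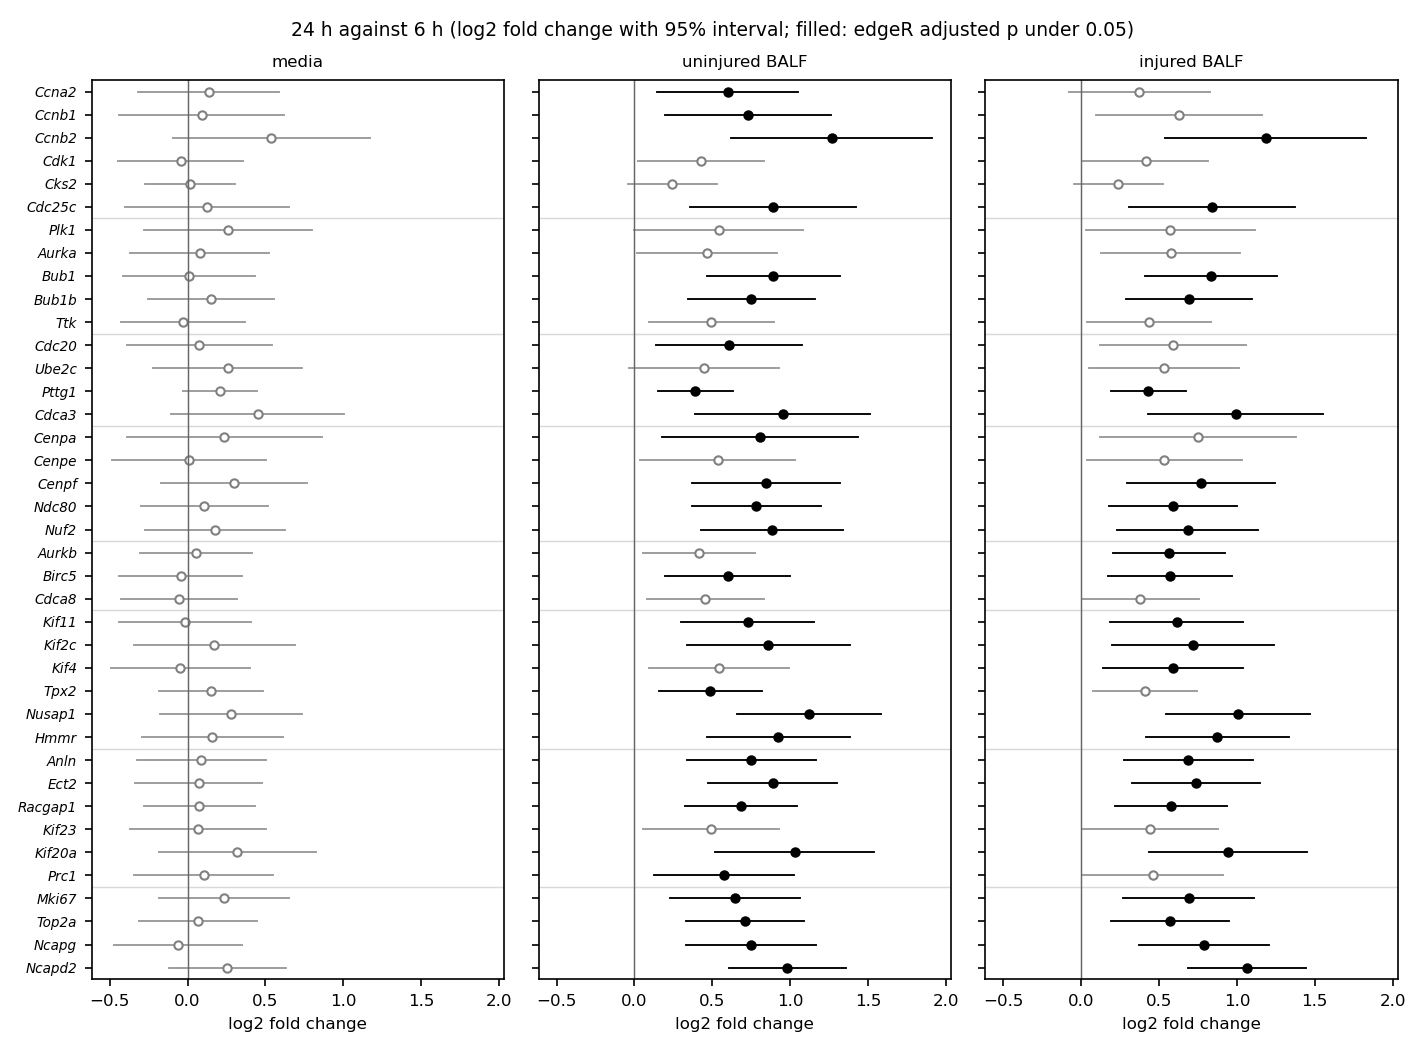
Log2 fold change of each of the 39 members between 24 and 6 h in media, uninjured BALF and injured BALF, with 95% intervals; filled points passed an edgeR adjusted p of 0.05, and pale lines separate the functional groups. All 39 points lie above 0 in both fluids, and 28 and 24 are filled.

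Among the cyclins, CDK1 and its activators, 4 of 6 members rose in uninjured BALF and 2 in injured BALF. Ccnb2 (chr9:70407692-70421547), cyclin B2, lay at 4.74 to 27.7 (median 19.4) CPM in uninjured BALF at 6 h and 32.9 to 56.8 (median 36.4) CPM at 24 h. In injured BALF it lay at 6.09 to 27.9 (median 20.0) and 26.5 to 56.4 (median 43.9) CPM. The 2 times did not overlap in uninjured BALF and overlapped at the edge in injured BALF, and male number 3 was lowest at 6 h in both. The log2 fold change was 1.27 ± 0.31 (SE) in uninjured BALF (edgeR adjusted p = 0.00301) and 1.18 ± 0.31 in injured BALF (adjusted p = 0.00563), the largest of the 39 in each. In media Ccnb2 went from 17.2 to 35.3 (median 29.0) to 33.6 to 48.6 (median 37.8) CPM, a log2 fold change of 0.54 ± 0.31 that did not pass (edgeR adjusted p = 0.294). With the 2 low libraries left out, 4 of the 6 members rose in uninjured BALF and 3 in injured BALF, and Ccnb2 rose by 1.04 ± 0.22 and 0.97 ± 0.22.

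Ccnb1 (chr13:100778650-100786570), cyclin B1, lay at 11.4 to 51.5 (median 40.5) CPM in uninjured BALF at 6 h and 47.1 to 69.0 (median 61.1) CPM at 24 h. It rose there by 0.73 ± 0.26 on the log2 scale (edgeR adjusted p = 0.0341), with 1 library of 24 h inside the range of 6 h. In injured BALF it lay at 12.5 to 53.1 and 49.2 to 71.8 CPM, and the estimate of 0.63 ± 0.26 did not pass (edgeR adjusted p = 0.0749). Reads of Ccnb1 are uncertain, since 4 other annotated genes carry near-identical stretches. Cdk1 (chr10:69335146-69352938), the kinase of the B cyclins, moved less: it lay at 32.5 to 88.2 (median 65.2) and 69.0 to 101 (median 88.1) CPM in uninjured BALF at 6 and 24 h, and at 35.5 to 93.7 (median 79.5) and 86.0 to 119 (median 94.4) CPM in injured BALF. The times overlapped in both, and its log2 fold changes of 0.43 ± 0.20 and 0.41 ± 0.20 did not pass (edgeR adjusted p = 0.0992 and 0.122). Cks2, a small CDK-binding protein, had the lowest estimates of the 39, 0.24 ± 0.14 and 0.24 ± 0.14, with 95% intervals of -0.04 to 0.53 and -0.05 to 0.53; 3 other annotated genes share near-identical stretches with it. Cdc25c, the phosphatase that activates CDK1, was the least abundant member per kilobase of exon (median 1.80 CPM per kb) and rose in both fluids by 0.89 ± 0.26 and 0.84 ± 0.26 (edgeR adjusted p = 0.0104 and 0.0169).

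Of the 5 mitotic and checkpoint kinases, 2 rose in each fluid, Bub1 and Bub1b, which serve the spindle checkpoint. Bub1 (chr2:127801122-127831865) lay at 8.06 to 28.5 (median 24.1) CPM in uninjured BALF at 6 h and 32.5 to 47.0 (median 40.4) CPM at 24 h. In injured BALF it lay at 11.2 to 32.1 (median 28.04) and 40.5 to 52.0 (median 45.2) CPM. The times did not overlap in either fluid, and the log2 fold changes were 0.89 ± 0.21 and 0.83 ± 0.21 (edgeR adjusted p = 0.00172 and 0.00342). In media Bub1 lay at 30.5 to 36.1 and 23.6 to 42.3 CPM, with a log2 fold change of 0.01 ± 0.21. Plk1 (chr7:122159439-122169873), a kinase of mitotic entry and spindle assembly, lay at 10.6 to 52.1 (median 42.2) and 48.7 to 62.8 (median 55.7) CPM in uninjured BALF and 13.2 to 52.6 (median 44.8) and 48.4 to 71.3 (median 63.0) CPM in injured BALF at the 2 times. Male number 3 stood far below the others at 6 h, and in each fluid 2 of the 6 h libraries overlapped those of 24 h. The Plk1 estimates of 0.54 ± 0.26 and 0.57 ± 0.26 did not pass (edgeR adjusted p = 0.124 and 0.11). Aurka, the spindle pole kinase, and Ttk, a checkpoint kinase, had estimates of 0.47 ± 0.22 and 0.50 ± 0.20 in uninjured BALF and 0.57 ± 0.22 and 0.44 ± 0.20 in injured BALF, none of which passed. Of these 5 kinases, 3 rose in uninjured BALF without the 2 low libraries and 4 in injured BALF; Bub1 rose by 0.70 ± 0.10 and 0.65 ± 0.10, while Plk1 stood at 0.32 ± 0.13 and 0.36 ± 0.13 (edgeR adjusted p = 0.0716 and 0.0429).

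Among partners and targets of the anaphase promoting complex, 3 of 4 members rose in uninjured BALF and 2 in injured BALF. Cdc20 (chr4:118432901-118437352), the activator that the checkpoint restrains, had the highest level per length of the 39, a median of 40.1 CPM per kb of exon. It lay at 21.5 to 73.7 (median 63.6) CPM in uninjured BALF at 6 h and 70.4 to 101 (median 84.3) CPM at 24 h, and its libraries overlapped between the times. Its log2 fold change was 0.61 ± 0.23 in uninjured BALF (edgeR adjusted p = 0.0437) and 0.59 ± 0.23 in injured BALF, where it missed the threshold (adjusted p = 0.0547). Cdca3 (chr6:124829547-124833701), a mitotic ubiquitin ligase adaptor, lay at 7.42 to 28.2 (median 21.8) CPM in injured BALF at 6 h and 32.0 to 53.7 (median 40.9) CPM at 24 h, with no overlap. It rose by 0.95 ± 0.27 in uninjured BALF and 0.99 ± 0.27 in injured BALF on the log2 scale (edgeR adjusted p = 0.00907 and 0.00775). In media its levels were 22.7 to 37.9 (median 31.3) and 35.0 to 48.9 (median 41.4) CPM, and the estimate of 0.45 ± 0.27 did not pass. In each fluid 3 of the 4 rose without the 2 low libraries, with Cdc20 at 0.41 ± 0.13 and 0.40 ± 0.13 (edgeR adjusted p = 0.0149 and 0.0228) and Cdca3 at 0.72 ± 0.15 and 0.79 ± 0.15.

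Pttg1 (chr11:43420250-43426251), securin, which is degraded so that sister chromatids can separate, stood nearly level between the treatments at 6 h, unlike most members. It lay at 8.93 to 14.4 (median 11.5) CPM in media, 8.20 to 12.8 (median 11.5) CPM in uninjured BALF and 8.91 to 13.8 (median 11.3) CPM in injured BALF at 6 h, 3 ranges that overlap almost wholly. At 24 h it lay at 12.4 to 14.3, 12.7 to 17.9 and 13.3 to 17.7 CPM. Its differences from media at 6 h were -0.03 ± 0.12 and -0.00 ± 0.12 (95% intervals -0.27 to 0.21 and -0.24 to 0.24), the smallest of the 39. In injured BALF it was not alone in this. The smallest difference among the cyclins, CDK1 and its activators was -0.00997 there, and among the mitotic and checkpoint kinases -0.0371. It rose with time by 0.39 ± 0.12 in uninjured BALF and 0.43 ± 0.12 in injured BALF (edgeR adjusted p = 0.0119 and 0.00675). Pttg1 was named after its values were seen.

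**Figure D3:**
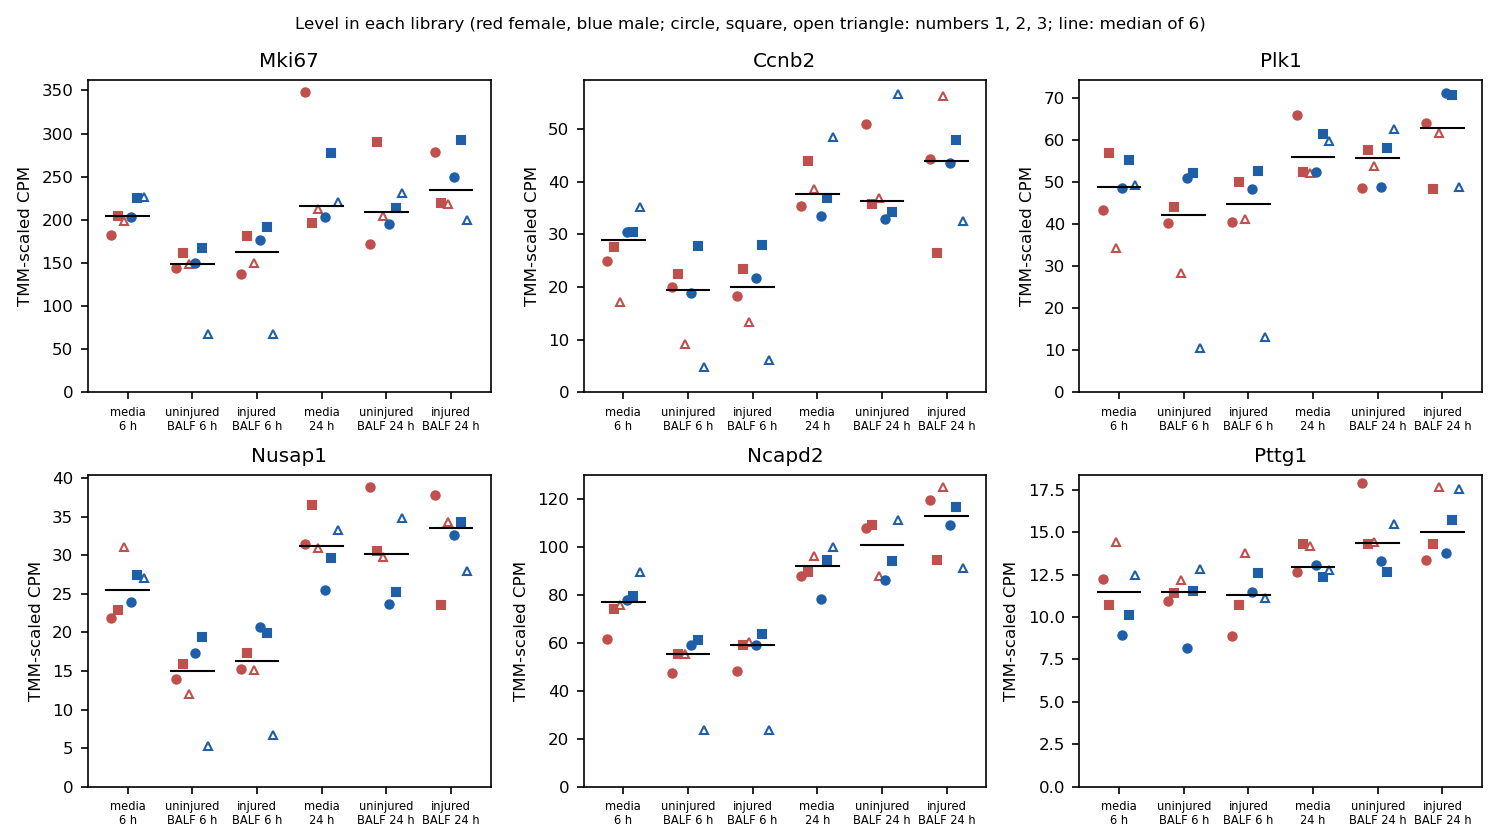
TMM-scaled CPM of 6 members in each of the 36 libraries, by condition, with the median of 6 as a line; axes start at 0. Male number 3 (open blue triangle) is lowest at 6 h in both fluids for Mki67, Ccnb2, Plk1, Nusap1 and Ncapd2, and not for Pttg1.

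Of the 5 centromere and kinetochore members, 4 rose in uninjured BALF and 3 in injured BALF. Nuf2 (chr1:169497934-169531464), a subunit of the NDC80 complex that grips microtubules, lay at 7.15 to 22.9 (median 18.6) CPM in uninjured BALF at 6 h and 27.2 to 37.7 (median 31.9) CPM at 24 h. With injured BALF the values were 7.57 to 27.1 (median 24.7) and 27.1 to 39.7 (median 36.9) CPM. The times did not overlap in either fluid, and male number 3 was far below the other 5 at 6 h. The log2 fold changes were 0.89 ± 0.22 and 0.68 ± 0.22 (edgeR adjusted p = 0.00329 and 0.0219). Its partner Ndc80 rose by 0.78 ± 0.20 and 0.59 ± 0.20, and Cenpf, a large kinetochore protein, by 0.85 ± 0.23 and 0.77 ± 0.23. Cenpe (chr3:135212537-135273611), the kinesin that carries chromosomes to the spindle equator, lay at 20.1 to 76.4 (median 57.7) and 68.7 to 106 (median 72.8) CPM in uninjured BALF at the 2 times. These ranges overlapped, and its estimates of 0.54 ± 0.24 and 0.53 ± 0.24 did not pass (edgeR adjusted p = 0.0951 and 0.105). In each fluid 4 of the 5 rose without the 2 low libraries, and Nuf2 rose by 0.71 ± 0.13 and 0.48 ± 0.13.

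The chromosomal passenger complex corrects wrong attachments and later guides division, and 1 of its 3 members rose in uninjured BALF and 2 in injured BALF. Aurkb (chr11:69045647-69051664), its kinase, lay at 8.91 to 26.7 (median 19.4) CPM in injured BALF at 6 h and 25.1 to 29.4 (median 27.7) CPM at 24 h, with 1 library of 6 h inside the 24 h range. Its rise was 0.56 ± 0.18 in injured BALF (edgeR adjusted p = 0.0169), and its estimate of 0.41 ± 0.18 in uninjured BALF did not pass (adjusted p = 0.0731). At 24 h the injured BALF libraries lay above all uninjured (19.4 to 24.9 CPM) and all media libraries (19.5 to 22.9 CPM). Birc5 (chr11:117849251-117855743), survivin, lay at 12.0 to 32.4 (median 28.9) CPM in injured BALF at 6 h and 35.0 to 46.4 (median 39.1) CPM at 24 h, which did not overlap. It rose by 0.60 ± 0.20 in uninjured and 0.57 ± 0.20 in injured BALF (edgeR adjusted p = 0.0204 and 0.0299). Cdca8 (chr4:124918465-124939311), borealin, lay at 11.4 to 33.5 (median 26.4) and 27.9 to 41.0 (median 35.2) CPM in uninjured BALF, overlapped between times, and did not pass in either fluid (0.46 ± 0.18 and 0.38 ± 0.18). With the 2 low libraries left out, all 3 rose in uninjured BALF and 2 in injured BALF, with smaller values such as 0.42 ± 0.11 and 0.40 ± 0.11 for Birc5, and Aurkb and Cdca8 passed in uninjured BALF at the threshold (0.24 ± 0.09 and 0.28 ± 0.11, edgeR adjusted p = 0.0495 for each).

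Of the 6 spindle motors and microtubule proteins, 5 rose in each fluid. Nusap1 (chr2:119618298-119651244), which bundles spindle microtubules, lay at 5.28 to 19.4 (median 14.96) CPM in uninjured BALF at 6 h and 23.7 to 38.8 (median 30.2) CPM at 24 h. Levels in injured BALF were 6.75 to 20.6 (median 16.2) and 23.6 to 37.9 (median 33.5) CPM. The times did not overlap in either fluid. It rose by 1.12 ± 0.23 and 1.01 ± 0.23 on the log2 scale (edgeR adjusted p = 0.000443 and 0.00138). In media Nusap1 lay at 21.8 to 31.03 CPM at 6 h, above every library of both fluids at that time, and at 25.5 to 36.6 CPM at 24 h. Tpx2 (chr2:152847964-152895321), an activator of Aurora A at the spindle, lay at 50.1 to 125 (median 97.8) and 109.5 to 149 (median 134) CPM in uninjured BALF, overlapping, and rose there by 0.49 ± 0.16 (edgeR adjusted p = 0.023). Its estimate of 0.41 ± 0.16 in injured BALF missed the threshold (adjusted p = 0.0615). The kinesins Kif11 and Kif2c and the spindle protein Hmmr rose in both fluids by 0.61 to 0.92, and Kif4 in injured BALF only at the threshold (0.59 ± 0.22, against 0.54 ± 0.22 in uninjured BALF), a difference between fluids that was not called. All 6 rose in uninjured BALF and 5 in injured BALF without the 2 low libraries, and Nusap1 rose by 0.92 ± 0.13 and 0.82 ± 0.13.

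In the central spindle and cytokinesis group, 5 of 6 members rose in uninjured BALF and 4 in injured BALF. Ect2 (chr3:27097222-27153878), the exchange factor that activates RhoA at the division plane, lay at 11.9 to 34.9 (median 31.2) CPM in uninjured BALF at 6 h and 41.0 to 62.6 (median 53.1) CPM at 24 h. With injured BALF it ranged over 14.8 to 39.3 (median 36.4) and 42.5 to 68.0 (median 54.5) CPM. The times did not overlap in either fluid. It rose by 0.89 ± 0.20 and 0.74 ± 0.20 (edgeR adjusted p = 0.00133 and 0.00682). Anln (chr9:22332012-22389188), anillin, the scaffold of the contractile ring, lay at 63.2 to 162 (median 141) and 188 to 233 (median 212) CPM in uninjured BALF, again with no overlap, and rose by 0.75 ± 0.20 there and 0.69 ± 0.20 in injured BALF (edgeR adjusted p = 0.0056 and 0.0116). Kif20a, a kinesin of the central spindle, rose by 1.03 ± 0.25 and 0.94 ± 0.25, and Kif23 passed in neither fluid (0.49 ± 0.21 and 0.44 ± 0.21). Leaving out the 2 low libraries, 5 and 4 of the 6 rose, and Ect2 rose by 0.71 ± 0.12 and 0.56 ± 0.12.

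All 4 members of chromosome structure rose in both fluids. Ncapd2 (chr6:125168007-125191701), a condensin subunit that compacts chromosomes, lay at 23.4 to 61.0 (median 55.3) CPM in uninjured BALF at 6 h and 86.0 to 111 (median 101) CPM at 24 h. Under injured BALF it lay at 23.6 to 63.7 (median 59.0) and 91.1 to 125 (median 113) CPM. Every 24 h library was above every 6 h library in both fluids. The log2 fold changes of 0.98 ± 0.18 and 1.07 ± 0.18 had the lowest p of the members (edgeR adjusted p = 0.000196 and 9.09e-05). Mki67 (chr7:135689784-135716361), the Ki-67 antigen that coats mitotic chromosomes, lay at 67.0 to 167 (median 149) and 172 to 291 (median 209) CPM in uninjured BALF and 67.0 to 192 (median 163) and 200.1 to 292 (median 234) CPM in injured BALF. The times did not overlap in either fluid, and in media at 24 h it spread over 196 to 348 CPM. It rose by 0.65 ± 0.20 and 0.69 ± 0.21 (edgeR adjusted p = 0.0174 and 0.0126). Top2a (chr11:98992943-99024189), the topoisomerase that untangles sister DNA, lay at 59.5 to 152 (median 131) and 166 to 227 (median 201.1) CPM in uninjured BALF with no overlap, and rose by 0.71 ± 0.19 and 0.57 ± 0.18 (edgeR adjusted p = 0.00439 and 0.0222). All 4 still rose in both fluids without the 2 low libraries, Ncapd2 by 0.82 ± 0.10 and 0.90 ± 0.10 and Mki67 by 0.49 ± 0.14 and 0.52 ± 0.14.

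At 6 h the estimates of all 39 members were below 0 against media in both fluids, and most did not pass the test. In uninjured BALF, 12 of the 39 fell and 0 rose at an edgeR adjusted p under 0.05, against 7.82% of all genes called lower and 10.6% called higher. The median member log2 fold change was -0.521, against -0.00732 over all genes, and all 39 estimates were below 0. The 12 were Cdc25c, Bub1, Ndc80, Nuf2, Kif11, Nusap1, Hmmr, Ect2, Racgap1, Top2a, Ncapg and Ncapd2, and 13 members lay below media with no overlap, against 3.87% of all genes, and 0 lay above it, against 7.18%. Nusap1 lay at 21.8 to 31.03 (median 25.5) CPM in media and 5.28 to 19.4 (median 14.96) CPM in uninjured BALF, with no overlap, and differed by -0.88 ± 0.23 (edgeR adjusted p = 0.00648). Ect2 lay at 38.8 to 53.8 (median 50.1) CPM in media and 11.9 to 34.9 (median 31.2) CPM in uninjured BALF, also apart, and differed by -0.77 ± 0.20 (adjusted p = 0.00691). Mki67, at 182 to 226 (median 204) CPM in media, lay above all uninjured BALF libraries as well, but its difference of -0.57 ± 0.20 missed the threshold (edgeR adjusted p = 0.052).

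In injured BALF at 6 h, 4 members were lower than in media (Nusap1, Ect2, Racgap1 and Ncapd2) and 0 higher, against 11.4% and 13.9% of all genes, a share of the members close to the background. The median log2 fold change was -0.344, against -0.00651, all 39 estimates were below 0, and 4 members lay below media with no overlap, against 5.87% of all genes, and 0 above, against 9.42%. Ncapd2 lay at 61.5 to 89.6 (median 76.8) CPM in media and 23.6 to 63.7 (median 59.0) CPM in injured BALF, where only the lowest media library fell inside the injured range. It differed by -0.55 ± 0.18 (edgeR adjusted p = 0.0285). Uninjured and injured BALF at 6 h share these media libraries as controls. Between the 2 fluids at 6 h edgeR and DESeq2 called 0 members, against 1.97% of all genes called higher and 1.46% lower in injured BALF; 0 members had an unadjusted p under 0.05, and the median member difference was 0.153. Of the 39 estimates between the fluids 38 were above 0 and 1 below, in a fit that did not pair libraries by number. No member was free of overlap between the fluids at 6 h, against 1.97% of all genes higher and 1.36% lower.

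The called falls kept their direction when the 2 low libraries were set aside, and the medians over the members lost size. In uninjured BALF 17 members were then called lower, including all 12 above, with 7.31% of all genes called lower and a median member log2 fold change of -0.329. In injured BALF the same 4 members were called, with a median of -0.152 and 9.5% of all genes. Members that were not called did not all stay below media there. Ttk lay at 12.85 to 19.24 (median 16.37) CPM in the injured BALF libraries left, against 13.21 to 16.55 CPM in media. The 5 mitotic and checkpoint kinases had a median log2 fold change of -0.0225. Leaving out 1 library changed the uninjured count to 4 (uninjured male number 3), 5 (uninjured female number 1, or media male number 3), 6 (uninjured female number 3) or 23 (uninjured male number 2). The injured count went to 0 without injured male number 3 or media female number 3, to 1 without injured female number 1, media female number 2 or media male number 3, to 2 without injured female number 2 or media male number 2, and to 8 without injured male number 2. With libraries 1 and 2 summed, 1 member was called in uninjured BALF and 0 in injured BALF, and without the 4 libraries of differing description number 2 and 1. For these last fits, from the single left-out libraries on, the share of all genes called is not given here.

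**Figure D4:**
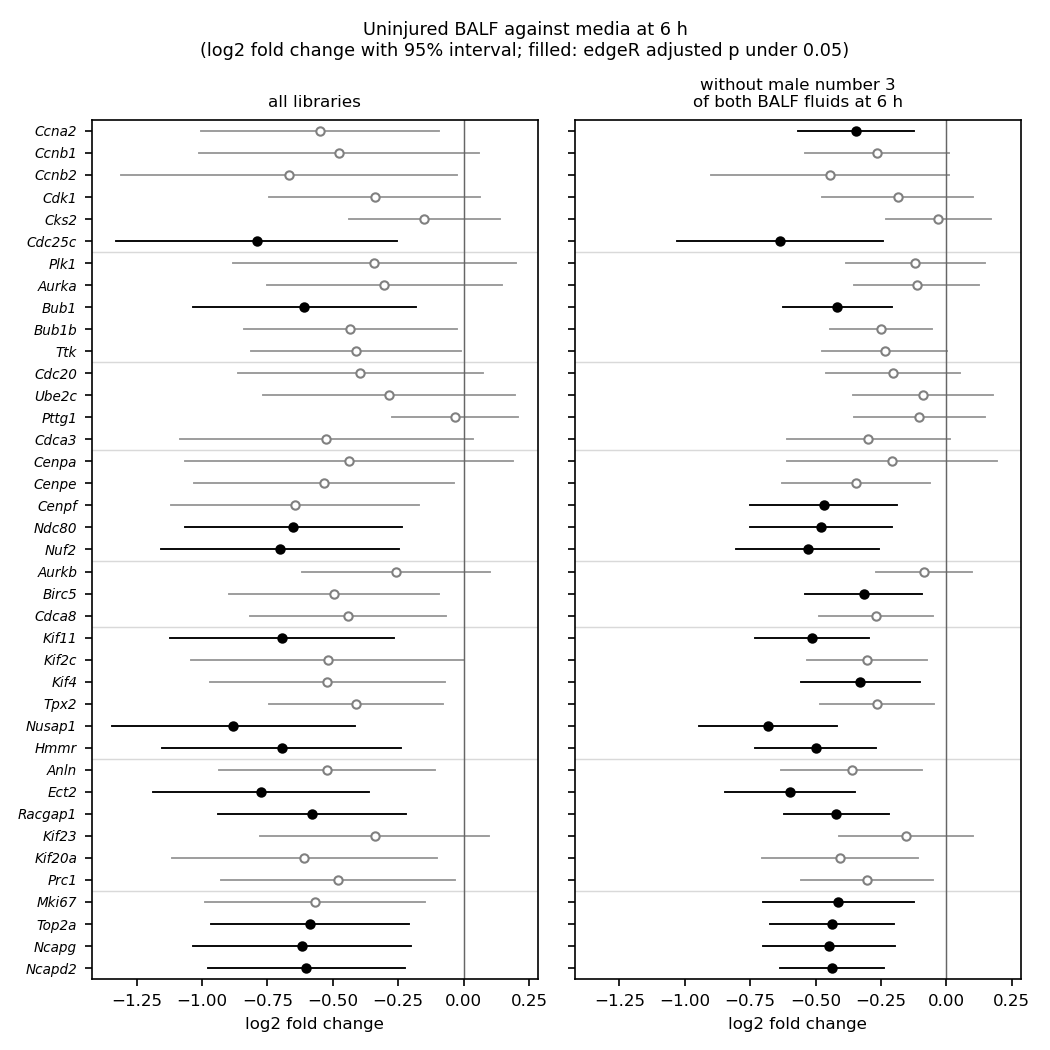
Log2 fold change of each of the 39 members between uninjured BALF and media at 6 h, with 95% intervals, fitted on all libraries (left) and without male number 3 of both fluids at 6 h (right); filled points passed an edgeR adjusted p of 0.05. All points lie below 0 on both sides, with 12 filled on the left and 17 on the right.

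At 24 h no treatment difference was called. Between uninjured BALF and media edgeR and DESeq2 called 0 of 39 members, against 0.516% of all genes called higher and 0.352% lower, with 0 members at an unadjusted p under 0.05 and a median log2 fold change of 0.0681. No member was free of overlap in that comparison, against 0.447% of all genes higher and 0.283% lower. Between injured BALF and media both tools called 0, against 11.5% and 12.2%, although 4 members (Aurkb, Bub1, Ttk and Ncapg) had an unadjusted p under 0.05 and the median was 0.178. Aurkb and Bub1b lay above media with no overlap, 2 of 39 against 4.48% of all genes, and 0 below, against 4.08%. Bub1 lay at 23.6 to 42.3 (median 33.9) CPM in media at 24 h and 40.5 to 52.0 (median 45.2) CPM in injured BALF, overlapping, with a difference of 0.45 ± 0.21 (edgeR adjusted p = 0.11). Aurkb, whose ranges are given above, differed by 0.39 ± 0.17 (adjusted p = 0.104). Between injured and uninjured BALF both tools called 0, against 2.38% higher and 2.04% lower, 0 at an unadjusted p under 0.05, with a median of 0.121. Only Aurkb lay higher with no overlap, 1 of 39 against 1.06%, and 0 lower, against 0.975%. Aurkb had the lowest p of the members there, with a difference of 0.29 ± 0.17 (edgeR adjusted p = 0.426).

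Without the 2 low libraries of 6 h, standard errors were smaller and 8 members passed as higher in injured BALF than in media at 24 h: Bub1, Bub1b, Ttk, Aurkb, Birc5, Kif2c, Ncapg and Ncapd2, with 11.6% of all genes called higher. Bub1 then differed by 0.45 ± 0.09 (edgeR adjusted p = 0.000935) and Aurkb by 0.39 ± 0.08 (adjusted p = 0.00127), values close to those from all libraries with smaller standard errors. Without all libraries numbered 3, 7 members were called against media, and a fit of just the groups in the comparison called 6. For both of these fits the share of all genes called is not given here. Without the 2 low libraries, Aurkb was also called higher at 24 h when injured was compared with uninjured BALF, by 0.29 ± 0.08 (edgeR adjusted p = 0.0446). It was the only one of the 39 members called there. With all libraries 2.38% of all genes were called higher in that comparison, and the share for this fit is not given here.

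Whether the difference from media itself changed between 6 and 24 h was tested as an interaction. For uninjured BALF 0 members were called by edgeR and by DESeq2, against 0.692% of all genes called higher and 1.27% lower. All 39 estimates were above 0 with a median of 0.589, 15 had an unadjusted p under 0.05, and the lowest adjusted p was 0.113, for Bub1 (0.88 ± 0.29). For injured BALF edgeR called 0 and DESeq2 1, against 1.15% and 1.45%, with a median of 0.514, 11 members at an unadjusted p under 0.05, and the lowest adjusted p of 0.0972 for Ncapd2 (0.81 ± 0.26). The rise with time in either fluid was therefore not shown to differ from that in media with all libraries. Without the 2 low libraries, 7 members were called for uninjured BALF (Bub1, Ncapd2, Ect2, Kif11, Ncapg, Nusap1 and Hmmr), with 0.913% of all genes called higher, and 3 for injured BALF (Ncapd2, Bub1 and Ncapg), with 0.975%. Ncapd2 then had interactions of 0.56 ± 0.13 and 0.64 ± 0.13 (edgeR adjusted p = 0.0229 and 0.00807). The difference between injured and uninjured BALF did not change with time for any member in edgeR or DESeq2 (0 called, against 0.151% higher and 0.088% lower; 0 at an unadjusted p under 0.05; median -0.059).

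Over all conditions 0 members differed by sex in edgeR or DESeq2, against 2.31% of all genes called higher in female and 3.03% lower, with 0 at an unadjusted p under 0.05 and a median log2 difference of 0.0177. The lowest p was that of Pttg1 (0.08 ± 0.07, edgeR adjusted p = 0.618). The rise between 6 and 24 h had a median of 0.658 in female and 0.726 in male libraries of uninjured BALF, and 0.529 and 0.732 in those of injured BALF. The difference from media at 6 h had a median of -0.395 in female and -0.641 in male libraries of uninjured BALF. Both low libraries are male: without them the male medians were 0.397 and 0.359 for the rise in uninjured and injured BALF, below the female 0.652 and 0.522, and -0.257 for uninjured BALF at 6 h, against -0.391 in female libraries. In none of the 9 treatment and time comparisons did edgeR call a difference between the sexes for a member, and 0 members had an unadjusted p under 0.05 for it. Leaving out the 2 low libraries, edgeR again called 0, with 3 members at an unadjusted p under 0.05 for uninjured BALF against media at 24 h and 2 for the rise in uninjured BALF.

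The spread of the members between libraries of a condition followed the 2 low libraries. The median coefficient of variation over the 39 genes was 9.26% in media at 6 h, 32.7% in uninjured BALF and 30.9% in injured BALF at 6 h, and 12.8%, 13.6% and 13.8% at 24 h in the same order. Without the 2 libraries it was 15.3% and 13.2% in the fluids at 6 h. The members also moved together from library to library. Taking each library's deviation of log2(CPM + 0.5) from the mean of its condition over the 36 libraries, the 741 pairs of members had a median Pearson correlation of 0.880, and of 0.593 without the 2 libraries, as a description in which genes share libraries and their scaling. Hmmr and Kif2c had the highest mean correlation with the other members (0.898 and 0.897), and Pttg1 the lowest (-0.108, or 0.00891 without the 2 libraries). Mki67 stood at 0.773 and 0.366, and Aurkb at 0.803 and 0.241.

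Among the genes outside the members and the lists, the 10 whose log2 CPM followed the mean of the members most closely over the 36 libraries were Kntc1, Parpbp, Pimreg, Stmn1, Diaph3, Shcbp1, Esco2, Cip2a, Zwilch and Cep128, with correlations of 0.978 down to 0.940. Without the 2 low libraries they stood at 0.843 to 0.935. Kntc1 and Zwilch encode subunits of one kinetochore checkpoint complex, and Stmn1 encodes a microtubule-destabilizing protein.

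Other cell cycle genes were taken from 8 further lists, whose counts stand beside 15.2% of all genes called higher and 15.5% lower between 6 and 24 h in uninjured BALF, and 12.8% and 14.2% in injured BALF. Of 28 other genes of mitotic motors, spindle and division, 18 rose between 6 and 24 h in uninjured BALF and 15 in injured BALF. Mastl, a kinase that protects mitotic phosphorylation, rose by 1.05 ± 0.20 in uninjured BALF (edgeR adjusted p = 0.000203) and 1.04 ± 0.20 in injured BALF (adjusted p = 0.000249). Of 20 other kinetochore and checkpoint genes 9 rose and 1 fell in uninjured BALF, and 8 rose in injured BALF. Spc25, a further NDC80 subunit, rose by 0.87 ± 0.18 in uninjured BALF, and the one that fell was Zwint, a kinetochore scaffold (-0.81 ± 0.13, edgeR adjusted p = 4.61e-05). Of 12 other condensin and cohesin genes 6 and 2 rose, with the condensin gene Ncaph at 0.73 ± 0.15 in uninjured BALF and 0.67 ± 0.15 in injured BALF. In the 2 libraries in which the members were low, all 28 of the motor and division genes were lowest too, at a median ratio of 0.405 and 0.412. Without those 2 libraries 19 and 16 of the motor genes rose in uninjured and injured BALF, 9 and 7 of the kinetochore genes, and 3 and 1 of the condensin and cohesin genes.

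Genes of other steps of the cycle gave mixed counts. Of 28 DNA replication genes 6 rose in uninjured and 5 in injured BALF between 6 and 24 h, led by Tk1, thymidine kinase (1.18 ± 0.21 and 1.10 ± 0.21, edgeR adjusted p = 8.93e-05 and 0.000202). At 24 h 12 of these 28 were higher and 0 lower in injured BALF than in media, against 11.5% and 12.2% of all genes. The list median there was 0.427, and Tyms, thymidylate synthase, differed by 0.70 ± 0.15 (edgeR adjusted p = 0.000784). Of 13 genes of G1 cyclins and commitment 2 rose and 3 fell in uninjured BALF, with Cdc25a, a phosphatase of S phase entry, at -0.75 ± 0.14, and E2f1 at 0.32 ± 0.07. Of 15 FOXM1, MuvB and pocket protein regulators 2 rose and 2 fell in uninjured BALF: Rbl2 rose by 0.60 ± 0.11 and E2f4 fell by 0.71 ± 0.16. Foxm1 itself had estimates of 0.48 ± 0.22 and 0.53 ± 0.22 in the fluids, which did not pass (edgeR adjusted p = 0.101 and 0.0778). Of 16 subunits of the anaphase promoting complex, 2 rose and 1 fell in each fluid. 5 of 7 CDK inhibitors rose in each fluid, among them Cdkn2d (1.05 ± 0.20 in uninjured BALF and 1.13 ± 0.20 in injured BALF) and Cdkn2c (0.78 ± 0.21 and 0.75 ± 0.21). Leaving out the 2 low libraries, 2 and 5 of the replication genes and 4 and 4 of the CDK inhibitors rose in uninjured and injured BALF.

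At 6 h against media, where 7.82% of all genes were lower and 10.6% higher in uninjured BALF, the same lists held 7 of 28 motor and division genes lower, 5 of 20 kinetochore genes lower and 1 higher (Zwint, 0.80 ± 0.13), 4 of 12 condensin and cohesin genes lower, 2 of 28 replication genes lower (Tk1 and Pola1) and 2 of 7 CDK inhibitors lower (Cdkn2d and Cdkn1b). The FOXM1, MuvB and pocket protein list had 2 higher and 3 lower, the G1 list 1 and 1, and the anaphase promoting complex subunits 1 and 1. With the 2 low libraries left out, 0 of 7 CDK inhibitors were called and the motor genes kept a count of 7. Of the markers of other cell types, 0 of 7 mesothelial and 0 of 8 endothelial genes were called between 6 and 24 h in either fluid. In uninjured BALF 1 of 9 pericyte markers rose and 1 fell, 1 of 8 macrophage markers fell, and 1 of 3 neutrophil and 1 of 2 epithelial markers rose. In injured BALF 1 of 9 pericyte markers rose and 2 fell, and 1 of 7 fibroblast and 1 of 3 neutrophil markers rose. With a CHR form in the promoter the median log2 fold change of the rise was 0.709 in uninjured and 0.593 in injured BALF over 29 members. Without one it was 0.886 and 0.684 over 5 members. With CCAAT it was 0.686 and 0.593 over 27 members, and without it 0.784 and 0.684 over 7 members. Few promoters lacked a motif, and whether the motifs go with the size of the rise was not tested.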

How the data were processed

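The authors deposited whole-number counts per Ensembl gene for 36 libraries made with a stranded mRNA kit, per the labels' protocols. STAR 2.5.2b, RSEM 1.2.31, DESeq2 and GRCm38 are named in the submitters' processing notes, with no role, so the counts may be rounded estimates in which reads of near-identical genes are shared. Of the identifiers 48349 (99.09%) matched a GENCODE M21 symbol. 8 members have a stretch of at least 200 bases at 95% identity or more in another gene, and 16 overlap a gene on the opposite strand. The sources used here do not state whether counting used strand.

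Tests used edgeR 4.0.16 in R 4.3.3 (quasi-likelihood, TMM factors 0.874 to 1.092, its expression filter) on 12 groups of treatment, time and sex, with 24 residual degrees of freedom, and were tested on simulated data. Treatment effects are means of both sexes, ± is an approximate standard error, |log2 fold change| over √F, and calls are at a Benjamini-Hochberg adjusted p under 0.05 over all 15901 genes. The common coefficient of variation was 22.5%. Members were named as the most abundant and the lowest p of each functional group, plus 7 chosen genes, some of which this rule had already picked. The p used was that of the rise between 6 and 24 h in uninjured BALF. Members named beyond these were picked after their values were seen. The members and lists were chosen with earlier results of these data known. In pairs of the same sex and number, all 6 correlations were over 0.1 for 24 against 6 h in injured BALF (0.228 to 0.593) and injured against uninjured BALF at 6 h (0.333 to 0.654), so the numbers were taken to pair the samples there. The main fit did not use this pairing, and its calls in these comparisons are unpaired. A replicate block was run as an alternative, but it joined the same number of both sexes. A block of number within sex, which follows these pairs, was added after seeing the data. In the other comparisons at least 1 pair was at 0.1 or below, and the 6 lowest (-0.491 to -0.327) were all pairs with female numbers 1 and 3 of uninjured BALF at 24 h. Alternatives were DESeq2 1.42.0, RLE scaling, no filter, other fits and left-out libraries.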

Additional observations from a re-analysis of the deposited data

Results flagged for a closer look

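In 120 groups of 6 libraries (the 19 named members and their mean, in 6 conditions), 18 had a lowest or highest library whose gap to the next, divided by the range, was above Dixon's critical value at 95% for 6 samples. Chance alone does this in about 5% of groups, and the 18 are not independent, since 15 of them are the same 2 libraries.

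In injured BALF at 6 h, male number 3 was lowest with a gap of 0.787 of the range for Cdc20 (20.5 CPM), 0.659 for Ect2, 0.658 for Nuf2, 0.640 for Cdca8, 0.786 for Birc5, 0.693 for Plk1 (13.2 CPM), 0.648 for Bub1 and 0.744 for the member mean. In uninjured BALF at 6 h, male number 3 was lowest with a gap of 0.650 for Ect2, 0.770 for Mki67 (67.0 CPM), 0.641 for Ncapd2, 0.679 for Bub1, 0.661 for Top2a, 0.760 for Aurkb and 0.667 for the member mean. Cenpe was highest in female number 2 of uninjured BALF at 24 h (106 CPM, gap 0.698) and in male number 2 of media at 24 h (98.8 CPM, gap 0.908). Cdk1 was lowest in female number 1 of media at 24 h (41.5 CPM, gap 0.674), a library in which mitochondrial genes took 3.87% of the counts.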

How the results depend on the processing

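The counts of called members held within 1.5 times under RLE scaling, no low-count filter, sex left out, and a replicate block (33 and 30 rising in uninjured and injured BALF, 18 and 6 lower at 6 h). No call of a named member reversed: of 228 values (19 members, 12 comparisons) 66 changed sign under some alternative, 0 of the 35 called among them. Members were named partly by the lowest p of the rise in uninjured BALF, and the alternatives share most libraries. A reversal was therefore unlikely from the start. Over all alternatives 6566 values kept their side of the threshold, 112 gained the call and 162 lost it. Only the 35 called values could lose a call, so most of the 6566 were never called. The rise of Cdc20 in uninjured BALF lost its call in 16 of 27 alternatives. Against media at 6 h, Bub1 in uninjured BALF lost it in 15 of 27 and Ect2 in injured BALF in 14 of 27. The rise of Ncapd2 lost it in 0 of 27 in either fluid. Outside the 2 paired comparisons the numbers did not pass the pairing check: over all 9 comparisons 31 of 54 pairs had a correlation over 0.1 (-0.491 to 0.654) and 36 were closest to their own number. The replicate block changed no other call by over 1.5 times. No scaling moved the median of all genes by over 0.1.

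The cause of the following moves was not tested, and the share of all genes called is not given beside these counts. With libraries 1 and 2 summed, 16 members rose in uninjured and 7 in injured BALF, and 1 and 0 were lower at 6 h. Without the 4 libraries of differing description number, 2 and 1 were lower at 6 h in uninjured and injured BALF. Fitting only the groups compared called 2 lower in injured BALF at 6 h, 6 in injured BALF against media at 24 h and 2 between times in media. DESeq2 called 1 in the injured BALF interaction. Added after seeing the data, a replicate block within sex called 21 and 8 lower at 6 h in uninjured and injured BALF and 1 in the uninjured interaction. Leaving out the 2 low libraries called 8 in injured BALF against media and 1 against uninjured BALF at 24 h, and 7 and 3 in the uninjured and injured interactions. Leaving out all male libraries numbered 3 called 9 in injured BALF against media at 24 h and 2 in the injured interaction.

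Leaving out single libraries or a number, calls ran from 5 to 36 for the rise in uninjured BALF, 3 to 32 in injured BALF, 1 to 23 at 6 h in uninjured BALF and 0 to 8 in injured BALF. With number 3 left out of every group, and by no single library, they ran from 0 to 7 for injured BALF against media and 0 to 1 against uninjured BALF at 24 h, and from 0 to 1 and 0 to 2 for the uninjured and injured interactions. The share of all genes called is not given beside these ranges either, and the role of depth was not tested.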
